A study of Oryza sativa Indica Group with 6 samples.

Results

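The beta-glucosidase family of rice was followed through the development of the male gametophyte. Its members were taken as the genes whose symbol or synonym in the RefSeq gene table is BGLU with a number. The rule found 31 genes, of which 27 were measured by 39 probe sets. A probe set is a group of probes read together, mostly for 1 transcript. Of the 39, 6 carry a suffix (s or x) given to probe sets that may read several transcripts. Over the whole array 57194 probe sets were tested, and 17905 genes had a probe set of their own. BGLU2, BGLU4, BGLU21 and BGLU24 had no probe set assigned in the annotation used here, and no probe set assigned to several genes included a member. Total RNA came from rice of the variety Guichao No.2 (Oryza sativa Indica Group), grown in the field, with no genetic change or treatment named in the labels. The groups were uninucleate microspores (UNM), with a single nucleus, bicellular pollen (BCP), made of a vegetative cell and a generative cell, and tricellular pollen (TCP), which carries sperm cells formed by division of the generative cell. Every stage was represented by 2 biological replicates on 1 Affymetrix array each, 6 arrays in all. The study compared gene expression among these stages.

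Beta-glucosidases remove a glucose unit from the end of a short sugar chain or from a small molecule to which it is linked. Most plant members belong to glycoside hydrolase family GH1, and known substrates include cell-wall oligosaccharides, precursors of lignin and stored, inactive forms of hormones and defence compounds. Some GH1 proteins transfer the sugar to another molecule instead of to water. Pollen builds an inner wall, the intine, of cellulose, pectin and proteins beneath the outer wall to which the surrounding tapetum contributes.

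Signals are on the log2 scale, so that a difference of 1 is a doubling. Means are given ± SD with n = 2 arrays per stage. The words rose and fell are used of differences of at least 1 with an adjusted p under 0.05 (limma, Benjamini-Hochberg over all 57194 probe sets). The 95th percentile of 123 probe sets for sequences foreign to rice, assumed not to have been added to the samples, was taken as background. It lay at 4.86 on both UNM arrays, at 5.13 and 5.15 on the BCP arrays, and at 5.59 and 5.71 on the TCP arrays. Where both arrays of the lower stage were below it, the fold is given as a bound, from the mean of the higher stage against that background level (or the probe set's own value where higher). Levels of different probe sets serve to choose which are shown and are not compared as amounts of RNA, since each has its own probes.

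The family divided into 4 genes that rose from UNM to BCP, 5 that fell, and 18 that passed in no comparison. Taking for each gene its probe set of highest mean, 4 of 27 (14.8%) rose and 5 of 27 (18.5%) fell, against 17.1% and 25.1% of all 17905 genes. In the second interval, BCP to TCP, 0 rose and 3 (11.1%) fell, against 8.52% and 28.6%. From UNM to TCP 3 (11.1%) rose and 5 (18.5%) fell, against 14.4% and 37.7%. Across the 3 stages 9 of 27 changed by the moderated F test (33.3%, against 63.4% of all genes). Both arrays of at least 1 stage were above background for 14 of 27 members (51.9%), against 77.4% of all genes, so the lower share of changes stood beside a lower share of detected members. The median difference of the 27 members was -0.14 from UNM to BCP, 0.01 from BCP to TCP and 0.01 from UNM to TCP, and that of all genes was -0.12, -0.06 and -0.34.

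Counted by probe sets, 6 of the 39 rose and 5 fell from UNM to BCP (15.4% and 12.8%, against 9.27% and 12.3% of all probe sets). Between BCP and TCP 0 rose and 4 fell (10.3%), against 5.94% and 13.3%. From UNM to TCP 5 rose and 5 fell (12.8% each), against 12.1% and 17.9%. The comparisons share arrays and are not independent of each other. Across the 39 probe sets, of which many lie at background, Pearson's r was 0.382 to 0.400 between UNM and BCP arrays and 0.973 to 0.978 between BCP and TCP arrays. Across all tested probe sets r was 0.826 to 0.827 and 0.835 to 0.841. These are descriptions across probe sets, which share arrays and are not replicates.

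**Figure D1:**
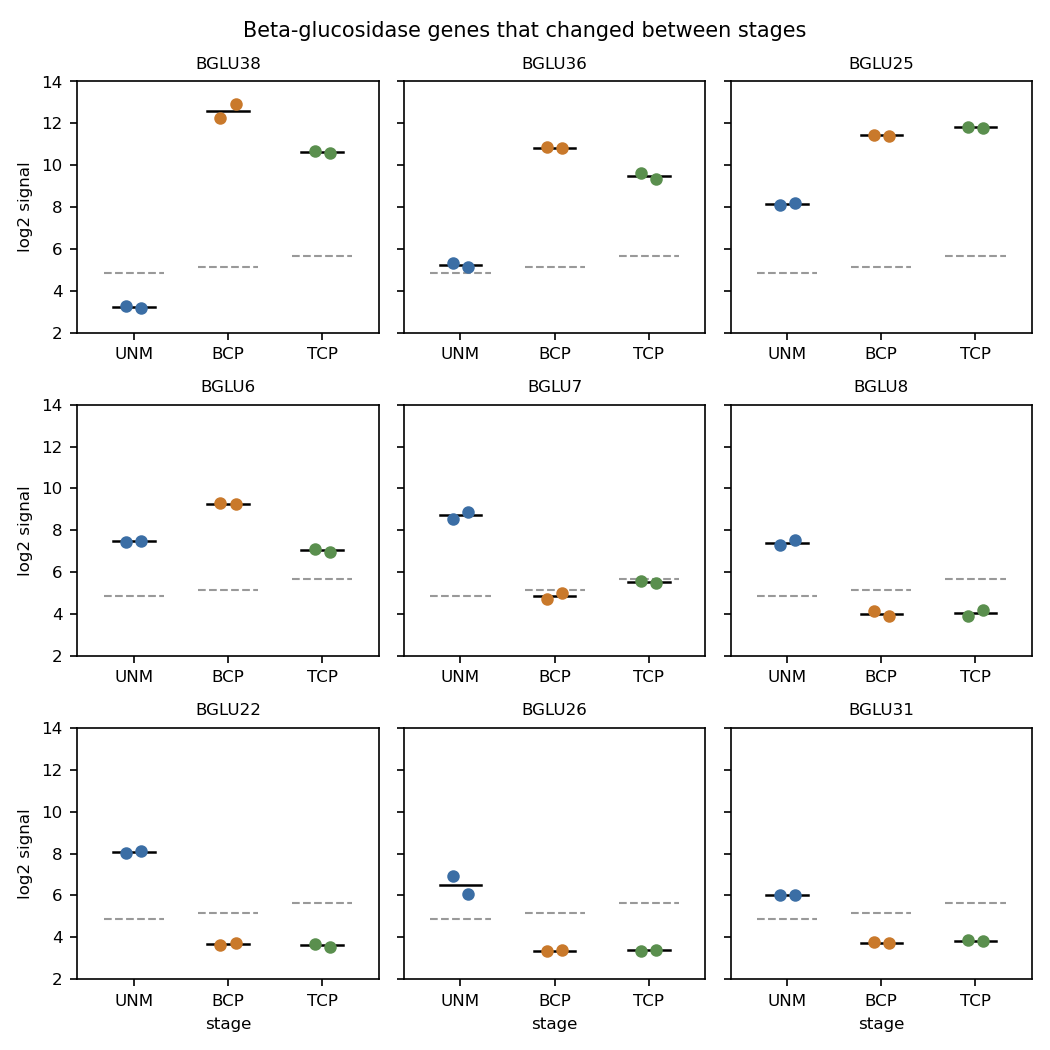
Signal on the log2 scale (vertical axis) in UNM, BCP and TCP (horizontal axis) for the 9 beta-glucosidase genes that changed, each by its probe set of highest mean. Points are single arrays, black bars the mean of 2 arrays, and dashed grey lines the background level of the stage: BGLU38 moved from below background in UNM to 12.59 in BCP, and BGLU8, BGLU22, BGLU26 and BGLU31 were above background only in UNM.

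The first group rose as the microspore became bicellular pollen. BGLU38 (Os12bglu38, gene 4352082) encodes a beta-glucosidase that has been linked to the building of the intine. Its signal was 3.29 and 3.18 in UNM, 12.26 and 12.91 in BCP, and 10.69 and 10.57 in TCP. The stages did not overlap, and neither UNM array was above background. The rise from UNM to BCP of 9.35 (SE 0.21, adjusted p = 2.58e-07 by limma) was at least 212-fold, and it stood in place 2 of all 57194 probe sets when these were ordered by their rise, an order that background makes inexact. BGLU38 then fell by 1.95 from BCP to TCP (SE 0.21, adjusted p = 0.000332 by limma), a 3.88-fold decrease. TCP remained above UNM by 7.40 (SE 0.21), at least 54.6-fold.

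BGLU36 (Os11bglu36, gene 4351127) is also named SFR2. In Arabidopsis the SFR2 protein is a galactosyltransferase of the chloroplast envelope that remodels galactolipids and is needed for freezing tolerance. By its probe set of highest mean, the signal was 5.35 and 5.11 in UNM, 10.86 and 10.81 in BCP, and 9.64 and 9.34 in TCP. It rose by 5.61 (SE 0.15, adjusted p = 5.26e-07 by limma), 48.7-fold, and fell by 1.34 from BCP to TCP (SE 0.15, adjusted p = 0.000435). Both other probe sets of the gene rose from UNM to BCP as well. One, which has the suffix s, went from 4.82 ± 0.27 to 10.13 ± 0.09 and to 9.09 ± 0.15 in TCP, a rise of 5.31 (SE 0.17). In UNM the probe set of suffix s was above background on 1 array, and the others of the gene on both. The remaining probe set had a smaller rise of 2.09 (SE 0.17), from 6.37 ± 0.18 to 8.46 ± 0.04. Between BCP and TCP it differed by -0.33 (SE 0.17, adjusted p = 0.168) and did not pass, and its rise of 1.76 from UNM to TCP was 0.27 after scaling by the hybridization controls and then did not pass. The direction of the first change was thus shared by the 3 probe sets, and its size was not. The probe set of BGLU36 with the rise of 5.31 had a fall of -1.05 from BCP to TCP, which was -0.58 after quantile normalization and -0.85 with arrays centred at the 75th percentile, and then no longer passed.

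BGLU25 (Os6bglu25, gene 4341870) was above background in all 3 stages and rose in the first interval without a fall afterwards. Its signal was 8.08 and 8.18 in UNM, 11.46 and 11.38 in BCP, and 11.83 and 11.79 in TCP. The rise of 3.29 (SE 0.12, adjusted p = 1.57e-06 by limma) was 9.79-fold. TCP and BCP differed by 0.39 (SE 0.12, adjusted p = 0.0431), under the minimum of 1, and by -0.84 after scaling by the hybridization controls. It was the only one of the 9 genes that changed whose stage mean was highest in TCP.

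BGLU6 (Os3bglu6, gene 4332041) encodes an enzyme that cleaves glucosides of hydrophobic compounds and has been linked to the release of abscisic acid from its glucose ester. Its signal was 7.44 and 7.50 in UNM, 9.29 and 9.23 in BCP, and 7.12 and 6.98 in TCP. Both BCP arrays thus stood above all others, all of them over background. It rose 3.46-fold (1.79, SE 0.12, adjusted p = 2.69e-05 by limma) and then fell by 2.21 (SE 0.12, adjusted p = 1.03e-05), a 4.64-fold decrease. UNM and TCP differed by -0.42 (SE 0.12, adjusted p = 0.0244), under the minimum of 1, a difference that was 0.32 after quantile normalization.

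The second group was high in microspores and at or below background afterwards. BGLU22 (Os5bglu22, gene 4338560) was above background in UNM alone. Its signal was 8.04 and 8.14 in UNM, 3.62 and 3.74 in BCP, and 3.70 and 3.54 in TCP. The fall of 4.41 from UNM to BCP (SE 0.13, adjusted p = 6.59e-07 by limma) was at least 7.72-fold, with both later stages below background.

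BGLU7 and BGLU8 lie next to each other, with no other protein-coding gene between them in the RefSeq table (assembly ASM3414082v1). BGLU7 (Os3bglu7, gene 4333841), an enzyme known to cleave beta-linked gluco-oligosaccharides, had signals of 8.53 and 8.89 in UNM, 4.72 and 5.02 in BCP, and 5.60 and 5.47 in TCP. BGLU8 (Os3bglu8, gene 4333842) had signals of 7.28 and 7.55 in UNM, 4.13 and 3.89 in BCP, and 3.92 and 4.19 in TCP. In both genes the UNM arrays stood apart from all later arrays. The fall from UNM to BCP was -3.84 for BGLU7 (SE 0.18, adjusted p = 3.80e-06 by limma), at least 11.9-fold. It was -3.41 for BGLU8 (SE 0.17, adjusted p = 5.38e-06 by limma), at least 4.84-fold. In TCP, 1 of the 2 BGLU7 arrays was just above background, and TCP differed from BCP by 0.66 (SE 0.18, adjusted p = 0.0226), under the minimum of 1, or by -0.57 after scaling by the hybridization controls.

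BGLU26 (Os7bglu26, gene 4344146) encodes an enzyme that acts on beta-linked mannose as well as glucose. Its signal was 6.91 and 6.08 in UNM, 3.33 and 3.38 in BCP, and 3.34 and 3.40 in TCP. The UNM replicates of this gene differed most among the 9 (SD 0.59), yet both stood above all later arrays. The fall of 3.14 from UNM to BCP (SE 0.25, adjusted p = 5.95e-05 by limma) was at least 2.56-fold.

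BGLU31 (Os9bglu31, gene 4347545) encodes a transglucosidase, which moves glucose between phenolic acids, flavonoids and hormones. Its signal was 6.02 and 6.03 in UNM, 3.78 and 3.70 in BCP, and 3.89 and 3.80 in TCP. It fell by 2.28 from UNM to BCP (SE 0.12, adjusted p = 7.33e-06 by limma), at least 1.85-fold. Its neighbours BGLU32 and BGLU33, with no other protein-coding gene between them in the RefSeq table, did not pass, with differences of -0.20 (adjusted p = 0.301) and -0.18 (adjusted p = 0.487) from UNM to BCP. BGLU33 was below background on all arrays, so that no absence of change can be read from it. The value of BGLU32 is from a probe set shared by several transcripts. Its other probe set, below background on all arrays, differed by 0.38 (SE 0.17). From UNM to TCP the 5 genes of this group differed by -4.47 (BGLU22), -3.36 (BGLU8), -3.17 (BGLU7), -3.12 (BGLU26) and -2.18 (BGLU31), and all 5 passed.

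Markers of the anther wall moved with the 5 falls. Of 13 measured markers of the list, 10 fell from UNM to BCP and 0 rose, where 25.1% of all genes fell and 17.1% rose. The summed signal of the 13 on the linear scale was 9127 to 9513 on the UNM arrays, 1031 to 1060 on the BCP arrays and 593 to 621 on the TCP arrays. The number of these markers above background on both arrays was 11 in UNM, 3 in BCP and 1 in TCP. The tapetal genes C4, C6, CP1 and CYP703A3 were below background on both BCP arrays. The 3 markers above background on both were OsCP1 (8.93 ± 0.01 in BCP), GAMYB (8.37 ± 0.17) and RTS (5.87 ± 0.02). GAMYB differed by -0.81 from UNM to BCP and did not pass. The gene listed as OsCP1 is a cystatin that shares this name with the cysteine protease of the tapetum, and so is no marker of it. It is counted among the 13 and the 10 falls, and its signal is in the sums. The 1 gene above background on both TCP arrays was this cystatin (8.41 ± 0.04). Of the 3 photosynthesis markers 1 fell and 0 rose from UNM to BCP. CAB2R, of the chlorophyll-binding proteins, went from 11.35 ± 0.09 to 4.55 ± 0.05, below background. The other 2 went the other way without passing, rca from 4.87 ± 0.30 to 5.87 ± 0.19 and RBCS from 8.35 ± 0.19 to 8.67 ± 0.28. From UNM to TCP rca and RBCS rose, by 1.08 and 1.01, so the 3 markers did not move together. The summed signal of the 3 was 2824 to 3121 on the UNM arrays, 432 to 553 on the BCP arrays and 726 to 742 on the TCP arrays. The part of other tissues in the falls of the beta-glucosidases was not tested. In RNA of whole samples, fewer cells of a type and less RNA per cell cannot be told apart. The 4 measured pollen markers (EXPB9, EXPB10, ADF9 and Rac6) all rose from UNM to BCP, against 17.1% of all genes. Their summed signal was 541 to 720 in UNM, 23645 to 23793 in BCP and 23028 to 24487 in TCP. The actin control, read by a probe set at the 3' end and one in the middle as a sign of RNA quality, differed between them by 3.10 in UNM, 1.87 in BCP and 1.91 in TCP. For the GAPDH control the same difference was 1.002, 1.005 and 1.55. The part of RNA quality was not tested either.

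**Figure D2:**
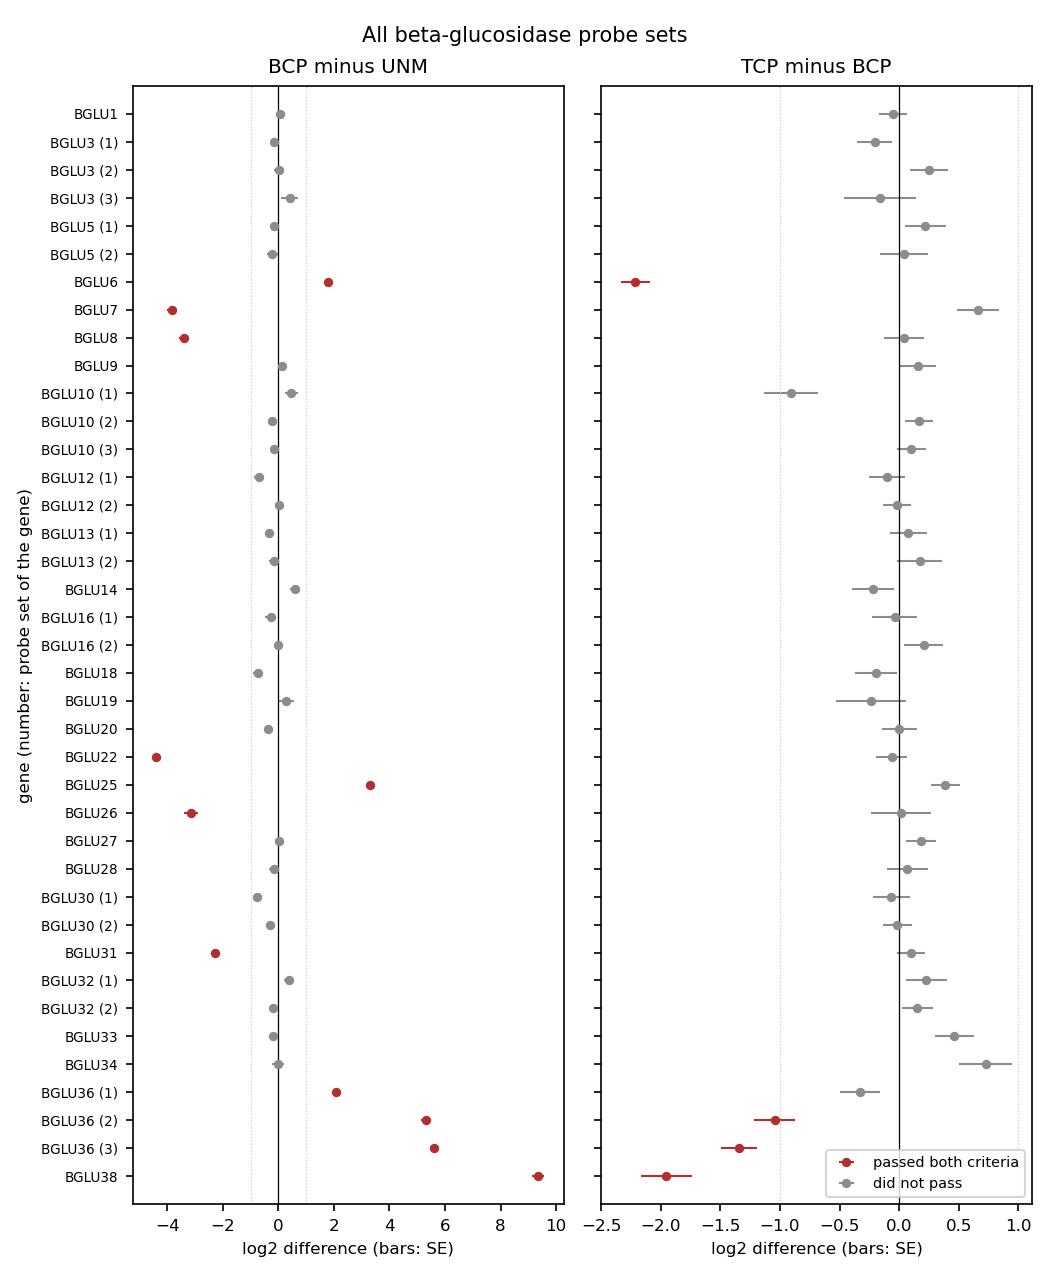
Difference between stages on the log2 scale (horizontal axes, with different ranges; bars are the SE of limma) for the 39 beta-glucosidase probe sets (rows), BCP minus UNM on the left and TCP minus BCP on the right. Red points passed both criteria: on the left they run from -4.41 to 9.35, and on the right the 4 that passed are all falls, between -1.05 and -2.21.

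In the second interval 4 probe sets of the 3 genes BGLU6, BGLU36 and BGLU38 fell, and these genes had risen before. Under the 5 scalings run 0 beta-glucosidase probe sets rose, but the size and the number of falls moved with the scaling between arrays. The 21 hybridization controls, bacterial transcripts added before hybridization, had a mean of 7.46 in UNM, 7.72 in BCP and 8.95 in TCP. Over all probe sets the median of TCP minus BCP was 0.14 as deposited, 0.34 with arrays centred at the 75th percentile and -1.09 after scaling by these controls. With the last, 34 of the 39 beta-glucosidase probe sets fell and 0 rose, where 33406 of all 57194 probe sets fell and 921 rose. Relative to the median of all probe sets, which such a shift of whole arrays leaves as it is, the differences were -2.36 for BGLU6, -2.10 for BGLU38 and -1.49 and -1.19 for the probe sets of BGLU36.

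Of the 18 genes that passed in no comparison, 13 had no stage with both arrays above background. The 5 others were BGLU9, BGLU10, BGLU13, BGLU18 and BGLU32. The 28 probe sets that never passed had differences between -0.95 and 0.73, and their array values ran from 2.36 to 7.03. BGLU10 (gene 4336142), by the 1 of its 3 probe sets above background, had signals of 6.38 and 6.73 in UNM, 7.03 and 7.01 in BCP, and 6.42 and 5.80 in TCP. Its difference of -0.91 from BCP to TCP (SE 0.22, adjusted p = 0.0171 by limma) came close to the minimum of 1 without reaching it. BGLU32 (gene 4347546) had 6.39 ± 0.03, 6.19 ± 0.00 and 6.34 ± 0.14 in the 3 stages by a probe set shared by several transcripts. BGLU13 (gene 4336146), which with BGLU12 is known to act on the glucoside of tuberonic acid, a relative of jasmonate, had 6.31 ± 0.10, 6.15 ± 0.05 and 6.32 ± 0.38. The differences of BGLU13 and BGLU32 between stages did not pass.

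The genes for glucosidases of monolignols, the precursors of lignin, are BGLU14, BGLU16 and BGLU18. None of them passed. BGLU18 (gene 4336391) was above background in UNM only, at 5.01 and 4.87, and had 3.95 and 4.42 in BCP and 3.96 and 4.01 in TCP. Its difference from UNM to TCP was -0.95 (SE 0.18, adjusted p = 0.00326 by limma), just under the minimum of 1. BGLU12, below background on at least 1 array of every stage, had a difference of -0.81 from UNM to TCP (adjusted p = 0.00345). The probe sets of BGLU30 were below background on all 6 arrays and differed from UNM to TCP by -0.32 (adjusted p = 0.0606) for that of highest mean and by -0.82 (adjusted p = 0.00350) for the other. BGLU34 had 0.73 from BCP to TCP (adjusted p = 0.0390), with all 6 arrays below background. At these signals a difference is limited by background, and no absence of change can be read from it.

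**Figure D3:**
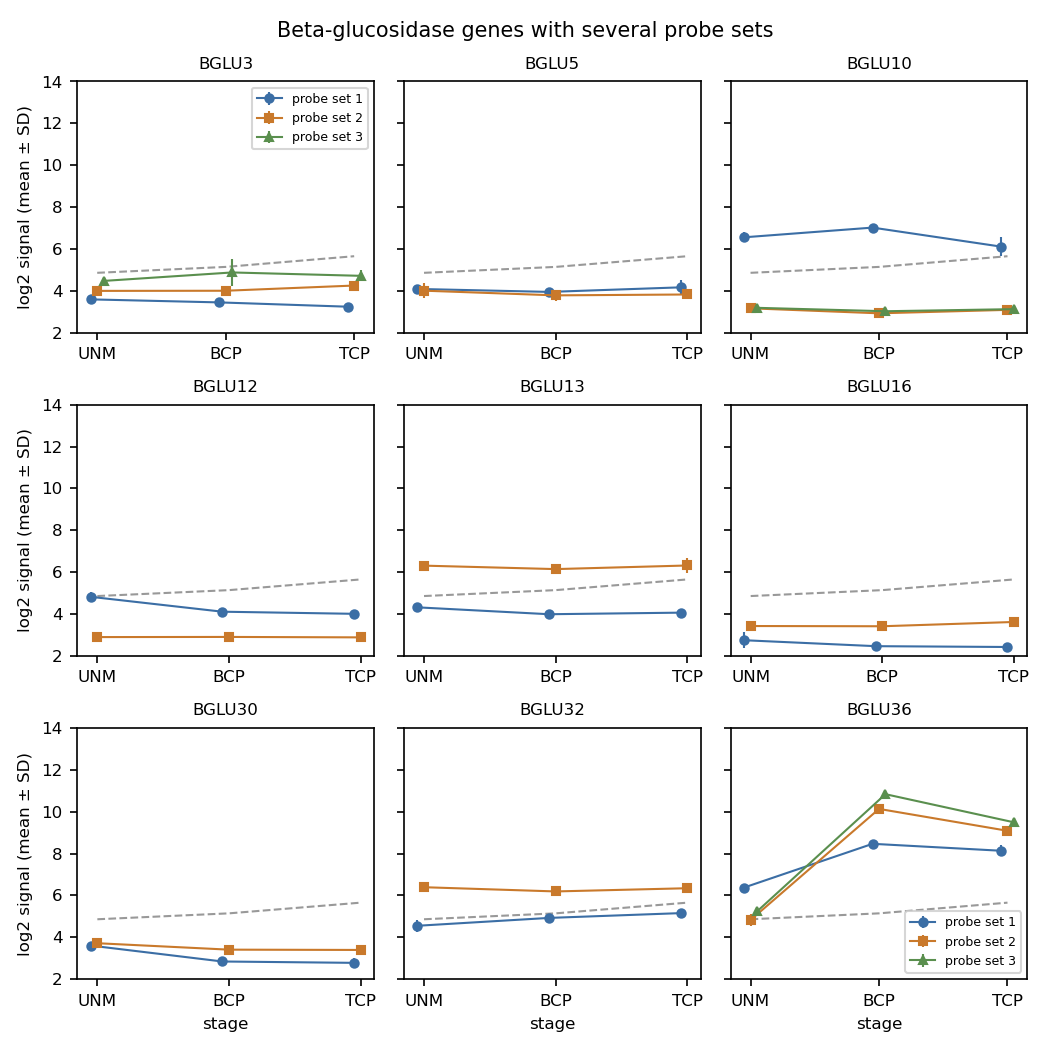
Mean signal on the log2 scale ± SD of 2 arrays (vertical axis) by stage (horizontal axis) for the 9 beta-glucosidase genes with more than 1 probe set, 1 line per probe set, with the background level dashed. The 3 probe sets of BGLU36 all rise from UNM to BCP, whereas for BGLU10, BGLU13 and BGLU32 only 1 probe set lies above background in every stage.

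Of the 27 measured genes, 18 had 1 probe set, 6 had 2 and 3 had 3. BGLU36 was the only gene of several probe sets with one that passed. In BGLU10, BGLU13 and BGLU32 one probe set was above background in all 3 stages and the others in none, so that the detection of these genes rests on a single probe set each. The RefSeq table places 9 pairs of members next to each other with no other protein-coding gene between. BGLU7 and BGLU8 were the only such pair in which both genes were measured and both passed.

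Other hydrolases of sugar chains were set beside the family by 1 probe set per gene, from lists of symbols. Of all 17905 genes 17.1% rose and 25.1% fell from UNM to BCP, with a median of -0.12. Of 13 endo-beta-1,4-glucanase genes (GLU and CEL names), which cut within cellulose-like chains, 1 rose and 5 fell from UNM to BCP, with a median of -0.50. GLU1 and GLU10 fell by 3.91 (SE 0.23) and 2.34 (SE 0.13) to below background, at least 8.33-fold and 1.38-fold. GLU14 rose by 2.69 (SE 0.14), from 3.57 ± 0.18, below background, to 6.27 ± 0.07, at least 2.65-fold. Of 10 chitinase genes 1 rose and 4 fell, with a median of -0.51. Cht5 fell by 4.75 (SE 0.17), at least 8.65-fold, and Cht7 by 4.09 (SE 0.17), 17.0-fold. The other 2 falls, of Cht11 and Cht1 (gene 4338719), were between values below background on all 6 arrays, for which no size is given. The single rise, of Cht10 (1.08, SE 0.20), did not pass without UNM replicate 2 or after scaling by the hybridization controls. Of 5 invertase genes, whose enzymes split sucrose, 1 rose and 1 fell, with a median of -0.54. The fall was that of CIN2 (-1.76, SE 0.19), a cell-wall invertase known for its role in grain filling, at least 1.85-fold. The rise was that of CIN7 (1.12, SE 0.28). Without UNM replicate 1, UNM replicate 2, BCP replicate 1 or BCP replicate 2, each in turn, and after scaling by the hybridization controls, 0 invertase genes rose. The single xyloglucan transferase gene measured, XTH8, fell by 4.16 (SE 0.24).

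Between BCP and TCP no gene of these 4 lists rose. Of all 17905 genes 8.52% rose and 28.6% fell in this interval, so that few rises are due in lists this small. The 5 genes of the lists that fell were below background in TCP, so that their falls are bounds. They were at least 8.65-fold for GLU2 and 1.53-fold for GLU14 among the endo-glucanases, at least 3.65-fold for CIN7 and 1.36-fold for CIN3 among the invertases, and at least 2.01-fold for the chitinase gene Cht7. GLU14 thus rose and then fell, as did BGLU6, BGLU38 and, by its probe set of highest mean, BGLU36. From UNM to TCP 1 of 13 endo-glucanase genes rose (GLU12, below background on all 6 arrays) and 5 fell, 0 of 10 chitinase genes rose and 4 fell, and 0 of 5 invertase genes rose and 3 fell. Of all genes 14.4% rose and 37.7% fell. No gene matched the lists of beta-galactosidases, beta-1,3-glucanases and UGT glucosyltransferases by the symbols used.

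**Figure D4:**
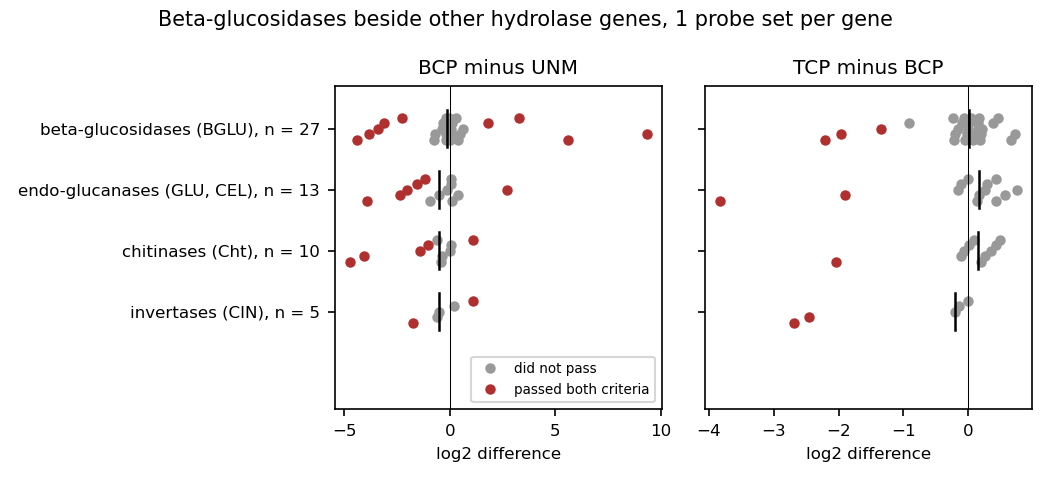
Difference on the log2 scale (horizontal axes, with different ranges) from UNM to BCP on the left and from BCP to TCP on the right for 27 beta-glucosidases, 13 endo-glucanases, 10 chitinases and 5 invertases (rows), 1 point per gene, red where both criteria were passed, with the median as a black bar. The medians from UNM to BCP lie at -0.14, -0.50, -0.51 and -0.54, and BGLU38 is the point farthest to the right at 9.35.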

How the data were processed

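Transcript levels of 6 samples, 2 of each stage, were measured on Affymetrix arrays with biotin-labelled cRNA made from 5 ug of total RNA, per the labels' protocols. Per the submitters' processing notes the authors ran RMA, and the deposited signals are log2 values per probe set. The arrays normalized together and the genome build are not stated. The table held 57381 probe sets, of which 187 controls were left out of the tests.

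Probe sets were assigned to genes by the platform annotation, which names 1 gene for 22436 probe sets, several for 95 and none for 34663 of those tested. All 17905 genes were found by ID in the RefSeq table, whose gene order gave the neighbours and from which no coordinates are printed. The values were fitted with limma 3.58.1 in R 4.3.3, stage as the factor, all 6 arrays in 1 fit, two-sided (residual degrees of freedom 3, prior 3.87), and the fit was tested on simulated data. No sequence tables were used. The number of arrays limits the precision. A p-value sets a difference against the spread between the samples, which the labels call biological replicates. That spread was estimated in part from all probe sets together, through the prior. The sample titles give the stages by the codes Pa, Pb and Pc, which were taken as UNM, BCP and TCP.

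Members and lists were chosen with earlier results of these data known. All members are accounted for, values are given for those that passed and for the 3 uncalled of highest level, and up to 3 members are named per other list by the size of their difference. The members near a threshold (BGLU12, BGLU18, BGLU30, BGLU34, BGLU33 and the neighbours), Cht1, Cht10 and GLU12 were named after their values were seen. The alternatives were other scalings, filters, priors, minimum differences and subsets of the arrays, and a replicate block.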

Additional observations from a re-analysis of the deposited data

How the results depend on the processing

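Of 25 differences of single probe sets that passed, 20 did so with the same sign in every alternative run that held the probe set. BGLU6 (UNM to BCP), BGLU38 and the larger fall of BGLU36 (BCP to TCP) were each lost only at a minimum difference of 2. The other exceptions were the 2 BGLU36 values below. BGLU8, BGLU22, BGLU26 and BGLU31 were not in the run without dim probe sets. For BGLU36 the run of 1 probe set per gene held only that of highest mean. Its probe set of suffix s was also not in the run without the suffixes s and x. From UNM to BCP the count of 11 beta-glucosidase probe sets was 11 without any 1 array and 7 of 10 without dim probe sets, which leaves fewer to test. From BCP to TCP the count of 4 was 34 after scaling by the hybridization controls, 8 without a minimum difference and 1 with a minimum of 2, and 3 to 4 without 1 array. From UNM to TCP the count of 10 (5 rose and 5 fell) was 36 after that scaling (4 rose and 32 fell), 6 without dim probe sets, 16 without a minimum difference and 10 to 11 without 1 array. By the F test the count of 11 was 38, 7 and 17 under the same 3 settings and 11 to 12 without 1 array. Over all 57194 probe sets, scaling by the hybridization controls gave 33406 falls and 921 rises from BCP to TCP. From UNM to TCP it gave 39685 falls and 1976 rises. With the replicate number as a block (replicate block) the counts for the family were 11, 4, 10 and 11. Deviations of same-numbered arrays correlated at -0.05, -0.07 and 0.01, and the labels do not say that numbers pair samples. From BCP to TCP small differences that had not passed changed sign. After scaling by the hybridization controls they were -0.57 (BGLU7), -1.19 (BGLU8), -0.84 (BGLU25), -1.22 (BGLU26) and -1.13 (BGLU31). After quantile normalization they were -0.12 (BGLU8), -0.089 (BGLU26), -0.047 (BGLU31) and 0.39 (BGLU36, the probe set of the smallest rise), and 0.32 for BGLU6 from UNM to TCP. After centring on the median they were -0.11 (BGLU8), -0.13 (BGLU26) and -0.049 (BGLU31), and after centring on the 75th percentile 0.13 (BGLU22). Without 1 array they ran from -0.089 to 0.18 (BGLU8), from -0.14 to 0.017 (BGLU22) and from -0.017 to 0.046 (BGLU26). The fall of the BGLU36 probe set of -1.05 was -0.98 without BCP replicate 2 and -0.94 without TCP replicate 1, under the minimum of 1. The difference of 1.76 from UNM to TCP of the BGLU36 probe set of the smallest rise was 0.27 after scaling by the hybridization controls. Where no setting's construction shows it, the cause was not tested. Signals under background limit the size of the falls and of the rise of BGLU38.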
